A study of Mus musculus with 16 samples.

Results

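The regions described here are distal accessible sites that hold a WGATAR motif (W is A or T, R is A or G) near the summit of the ATAC-Seq signal and have no E-box at the spacing of an E-box and GATA composite element. ATAC-Seq marks open chromatin by the cuts of the Tn5 transposase, and the summit is the base of highest signal in a peak. From each library the 49000 peaks of highest -log10 p on chromosomes 1 to 19 and X were taken, and overlapping peaks of the 16 libraries were merged into 90549 regions. A region was a member if it had a peak in 4 to 15 libraries, lay over 3 kb from a protein-coding transcription start site (TSS), held WGATAR within 100 bp of its median summit and held no E-box (CANNTG) 6 to 14 bp before any such site. This left 7655 members, 8.45% of all regions and 26.3% of the 29120 distal regions with a peak in 4 to 15 libraries. The members were chosen by the number of libraries with a peak, so presence is described below, and no p-value is given for a score over them.

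The study asked how loss of a distant Gata2 enhancer, and re-expression of GATA2 or of a disease-linked GATA2 variant, changed chromatin accessibility in mouse fetal liver hematopoietic progenitors. The 16 libraries form 4 groups of 4. The hi-77+/+ empty group carried the intact enhancer and an empty retrovirus, and the hi-77-/- empty group lacked the distant enhancer upstream of Gata2 for which the lines are named and carried the same empty retrovirus. The GATA2 and 9aa-Ins groups were hi-77-/- cells that received retrovirus for GATA2, or for a variant with a short amino acid insertion between the zinc fingers. All cells were conditionally immortalized with an estrogen-regulated HoxB8, so each genotype is a cultured line. The added GATA2 or 9aa-Ins came from the virus. The study reports that endogenous GATA2 was reduced in hi-77-/- cells and not absent. Its methods describe sorting of infected cells, though not in the account of ATAC-Seq. The study calls the 4 libraries of a group biological replicates, but the labels do not say whether they were separate infections, so the p-values below measure only the spread between these libraries.

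GATA2 is a zinc finger transcription factor of stem and progenitor cells, mast cells and megakaryocyte and erythroid precursors. Its zinc finger region contacts WGATAR, and it often acts at distal enhancers, alone at GATA sites or with E-box binding partners at composite elements. WGATAR is short and common, and most copies in the genome are not occupied in a given cell.

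A few sequences show what the members look like, 5′ to 3′ on the plus strand of GRCm38 (mm10), with each WGATAR, or its reverse complement, in capitals. The first set holds members opened by GATA2 (a peak in 4 of 4 GATA2 libraries and 0 of 4 hi-77-/- empty libraries), and was chosen to show how the number of sites varies. Prss34 and Zfpm1 have 4 sites, Meis1 has 2 that overlap, Myb has a pair on opposite strands, and Capzb has 1.
Prss34, chr17:25293598-25293798, plus strand: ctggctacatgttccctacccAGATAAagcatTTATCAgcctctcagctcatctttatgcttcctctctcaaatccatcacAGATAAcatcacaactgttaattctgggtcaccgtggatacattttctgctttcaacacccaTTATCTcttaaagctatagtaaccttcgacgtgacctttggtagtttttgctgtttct
Zfpm1, chr8:122309448-122309648, plus strand: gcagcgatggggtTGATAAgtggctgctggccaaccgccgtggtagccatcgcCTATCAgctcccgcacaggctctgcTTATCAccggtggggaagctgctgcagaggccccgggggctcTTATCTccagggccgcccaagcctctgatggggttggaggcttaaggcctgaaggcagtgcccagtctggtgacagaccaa
Meis1, chr11:18957299-18957419, plus strand: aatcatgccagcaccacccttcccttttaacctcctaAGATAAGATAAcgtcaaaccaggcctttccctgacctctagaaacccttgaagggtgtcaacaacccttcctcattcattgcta
Myb, chr10:21196716-21196836, plus strand: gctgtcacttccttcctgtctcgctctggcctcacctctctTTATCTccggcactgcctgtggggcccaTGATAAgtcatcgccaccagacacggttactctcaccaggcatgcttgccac
Capzb, chr4:139179841-139180041, plus strand: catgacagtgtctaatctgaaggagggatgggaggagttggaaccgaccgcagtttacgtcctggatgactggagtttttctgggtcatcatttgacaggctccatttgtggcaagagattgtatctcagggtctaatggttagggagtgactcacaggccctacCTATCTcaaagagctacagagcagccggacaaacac

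The second set shows members, each with 1 site, that changed in the other comparisons. The Postn and Rgs6 regions were opened in hi-77-/- empty against hi-77+/+ empty libraries, and the Tub region was closed. The Rgs6 region was also closed by GATA2, Sipa1l1 was opened by 9aa-Ins and Kcns2 was closed by it.
Postn, chr3:54414545-54414665, plus strand: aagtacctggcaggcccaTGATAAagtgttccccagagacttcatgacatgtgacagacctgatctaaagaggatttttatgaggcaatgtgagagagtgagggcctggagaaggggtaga
Rgs6, chr12:83039994-83040114, plus strand: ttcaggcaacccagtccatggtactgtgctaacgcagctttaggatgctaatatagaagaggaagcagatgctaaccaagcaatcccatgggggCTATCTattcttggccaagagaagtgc
Tub, chr7:108967074-108967274, plus strand: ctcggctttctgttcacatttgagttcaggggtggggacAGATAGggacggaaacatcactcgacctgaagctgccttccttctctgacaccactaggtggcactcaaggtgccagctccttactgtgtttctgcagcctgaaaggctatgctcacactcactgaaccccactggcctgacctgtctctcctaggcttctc
Sipa1l1, chr12:82387157-82387277, plus strand: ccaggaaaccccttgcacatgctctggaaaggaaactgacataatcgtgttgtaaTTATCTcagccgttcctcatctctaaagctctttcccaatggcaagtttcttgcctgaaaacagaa
Kcns2, chr15:34775849-34776049, plus strand: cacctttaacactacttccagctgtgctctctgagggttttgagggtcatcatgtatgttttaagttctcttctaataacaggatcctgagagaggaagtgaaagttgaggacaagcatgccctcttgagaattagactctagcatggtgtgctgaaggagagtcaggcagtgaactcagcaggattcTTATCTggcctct

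The third set holds members with the most sites, in which the motif recurs inside a short repeat. The sites of Olfr6 lie 4 bp apart and those of Dlgap2 31 bp apart (median).
Olfr6, chr7:106967609-106967809, plus strand: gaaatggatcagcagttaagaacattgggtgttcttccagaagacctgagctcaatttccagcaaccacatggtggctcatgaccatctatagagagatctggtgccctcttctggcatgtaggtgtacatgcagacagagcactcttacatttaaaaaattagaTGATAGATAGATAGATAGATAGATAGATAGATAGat
Dlgap2, chr8:14306840-14307040, plus strand: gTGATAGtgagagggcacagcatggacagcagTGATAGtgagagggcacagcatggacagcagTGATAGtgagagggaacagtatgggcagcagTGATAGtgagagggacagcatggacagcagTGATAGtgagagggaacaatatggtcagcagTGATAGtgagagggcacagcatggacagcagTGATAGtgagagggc

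The libraries held 50195 to 112267 deposited peaks, and the number of reads is not given. The background pileup (mean overlap of reads per base), read from the steps of the fold enrichments, ran from 0.301 to 0.890. It was highest in GATA2 replicate 1 and lowest in hi-77+/+ empty replicate 2, which had the most peaks. The fewest peaks thus did not go with the lowest background. The lowest -log10 p among the peaks kept ran from 5.35 to 11.7. GATA2 replicate 1 had the fewest peaks, the lowest limit and the narrowest peaks (median 177 bp), and the 9aa-Ins libraries had the widest (medians 293 to 378 bp). The ratio of shared to all regions of a pair of libraries (Jaccard index) was 0.670 to 0.774 within groups and 0.501 to 0.715 between groups. Promoters of 9 of 10 hematopoietic progenitor markers had a peak in all 16 libraries, and Mpo in 15, while promoters of 5 hepatocyte markers and 3 T cell markers had none. Of 3 endothelial markers, Pecam1 had a peak in 14 libraries and the others in none. Peaks covered 1196 to 1552 bp of the stretch 76 to 78 kb upstream of Gata2, which holds that enhancer, in hi-77+/+ libraries, 78 to 609 bp in hi-77-/- empty, 0 to 256 bp in GATA2 and 323 to 853 bp in 9aa-Ins libraries.

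Most members had a single site: 6086 had 1 WGATAR, 1307 had 2 and 262 had 3 or more. AGATAA made up 33.4% of their 9559 sites, AGATAG 25.01%, TGATAA 24.3% and TGATAG 17.3%. Introns held 3619 members (47.3%) and intergenic sequence 3822 (49.9%), with 136 in UTR exons and 78 in coding exons. The median member was 308 bp wide and lay 24.2 kb from the nearest TSS, and the 201 bp around its summit had 47.8% GC, against 50.2% in the 20798 distal regions with no WGATAR. WGATAR of any kind was in 28.6% of distal regions in 4 to 15 libraries, in 25.7% of distal regions in all 16 libraries and in 22.3% of regions within 3 kb of a TSS. At the edges of the rule, 1437 members had a peak in 4 libraries and 617 in 15, while 1383 otherwise like regions had a peak in 3 and 2355 in 16. Within 3 to 4 kb of a TSS lay 337 members, and 373 otherwise like regions lay 2 to 3 kb from a TSS. The nearest site of 541 members was over 90 bp from the summit, and 663 distal regions had their first site in the next 10 bp outside the window.

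Members with more WGATAR sites had peaks more often in GATA2 libraries and less often in every other group. Of members with 3 or more sites, the 4 GATA2 libraries had peaks at 78.6%, 82.8%, 85.5% and 85.5%. The same members had peaks in 26.7% to 37.8% in hi-77+/+ empty libraries, 31.3% to 38.9% in hi-77-/- empty libraries and 35.1% to 38.9% in 9aa-Ins libraries. The GATA2 libraries thus lay above all the others, whose ranges overlapped. Members with peaks in the 4 GATA2 libraries alone entered only through those peaks, which sets their presence here in advance. They were 3.81% of members with 1 site, 12.6% with 2 and 27.5% with 3 or more, so these shares are a description. At members with 2 sites the share was 74.3% ± 4.86 (SD, n = 4) in GATA2 libraries, 42.1% ± 1.34 in hi-77-/- empty, 48.4% ± 1.47 in 9aa-Ins and 38.8% ± 3.24 in hi-77+/+ empty libraries. At members with 1 site the share was 58.7% ± 3.89 in GATA2 and 58.5% ± 1.95 in 9aa-Ins libraries, which overlapped, and 51.9% ± 1.26 in hi-77-/- empty libraries. Distal regions with no WGATAR went the other way, with 44.9% ± 3.83 in GATA2 libraries and 60.7% ± 0.954 in hi-77-/- empty libraries. Each library entered with the same number of peaks, so a higher share in some regions comes with a lower share in others. A region without a peak may be closed in all cells or open in too few cells, and these cannot be told apart in bulk libraries.

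**Figure D1:**
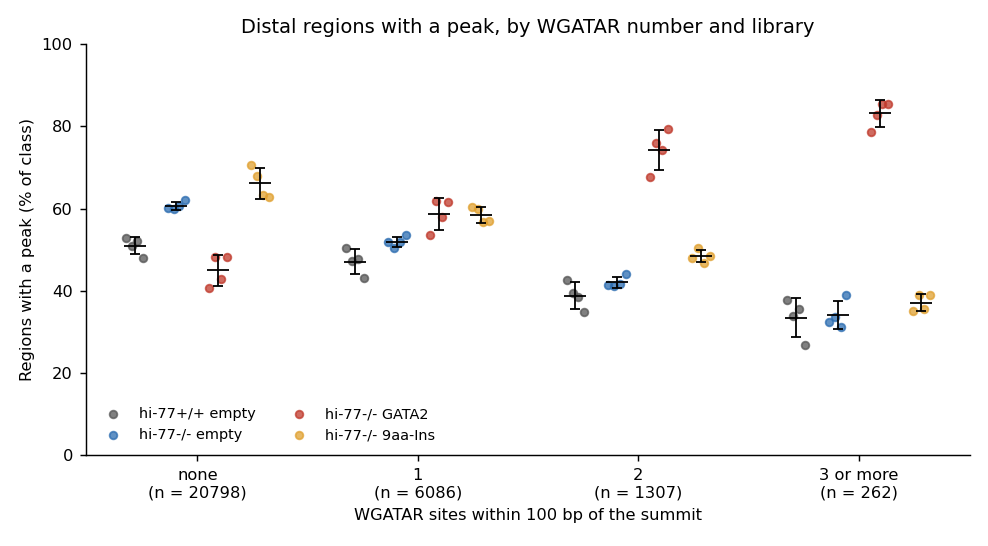
Share of distal regions with a peak (y axis, percent of the class) by the number of WGATAR sites within 100 bp of the summit (x axis), with 1 point per library and bars for the mean and SD of 4 libraries. From no site to 3 or more sites the GATA2 libraries go from a mean of 44.9% to 83.1%, while the means of the other groups go down. Of the regions with 3 or more sites, 27.5% entered through peaks in the GATA2 libraries alone.

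The difference in share between members with 2 or more sites and members with 1 summarises this. It was 15.97, 15.3, 18.2 and 18.7 percentage points in the 4 GATA2 libraries. It was negative in each of the other 12 libraries, from -9.86 to -8.50 points in hi-77+/+ empty, from -11.9 to -10.3 in hi-77-/- empty and from -14.7 to -10.2 in 9aa-Ins libraries. The mean in GATA2 libraries was 28.2 points above that in hi-77-/- empty libraries, and the mean in 9aa-Ins libraries was 29.0 points below that in GATA2 libraries. The means of 9aa-Ins and hi-77-/- empty libraries differed by -0.89 points, which is inside their spread. Without the limit on the number of libraries, over all 17803 distal WGATAR regions with no composite, the difference by site number was 7.49 points in GATA2 and -10.3 points in hi-77-/- empty libraries. The GATA2 mean was then 17.7 points above the hi-77-/- empty mean, against 28.2 over members. In that wider set the share at 3 or more sites was 56.2% ± 3.51 in GATA2, 21.1% ± 1.51 in hi-77-/- empty, 21.7% ± 0.876 in 9aa-Ins and 23.4% ± 2.94 in hi-77+/+ empty libraries.

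Over all members, without regard to site number, GATA2 libraries had peaks at 56.8%, 65.0%, 61.6% and 65.5%. The hi-77-/- empty libraries had peaks at 48.3% to 51.4%, 9aa-Ins at 54.3% to 57.5% and hi-77+/+ empty at 41.1% to 48.6%. GATA2 replicate 1 was the lowest of its group and inside the range of 9aa-Ins. The mean of GATA2 exceeded that of hi-77-/- empty libraries by 12.6 points, which fell to 2.15 points where a peak had to cover at least 50% of the region and to 4.42 points with all deposited peaks. The mean of 9aa-Ins was 6.20 points below that of GATA2, and under those settings it was 16.2 and 20.6 points above it. So the share over all members gave no stable order of GATA2 and 9aa-Ins, whereas the difference by site number kept its sign in both settings.

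A member was called opened in a comparison when every library of the group under study (4 of 4) and none of its reference group (0 of 4) had a peak there, and closed when the reverse held. With 4 against 4 libraries the smallest p of a two-sided Fisher exact test is 0.0286, and after Benjamini-Hochberg adjustment over 36005 regions in 4 to 15 libraries the smallest p was 0.199 to 0.748 over the 4 comparisons, so none passed and calls rest on the rule. At an unadjusted p under 0.05 the same test gave 959 members between the empty groups, 1181 with GATA2, 300 with 9aa-Ins and 1114 between 9aa-Ins and GATA2, which are the members opened or closed. GATA2 against hi-77-/- empty opened 936 members (12.2%) and closed 245 (3.20%), against 4.35% and 5.61% of all regions. The share opened went from 9.17% of members with 1 site to 21.1% with 2 and 38.9% with 3 or more, and was 1.44% of distal regions with no WGATAR. The share closed went from 3.75% to 1.22% and 0.38% of members, and was 7.15% without WGATAR. By exact number, 86 of 216 members with 3 sites (39.8%), 15 of 35 with 4 sites (42.9%) and 1 of 11 with 5 or more were opened. WGATAR was in 77.8% of all distal regions opened by GATA2 and in 14.97% of those closed.

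**Figure D2:**
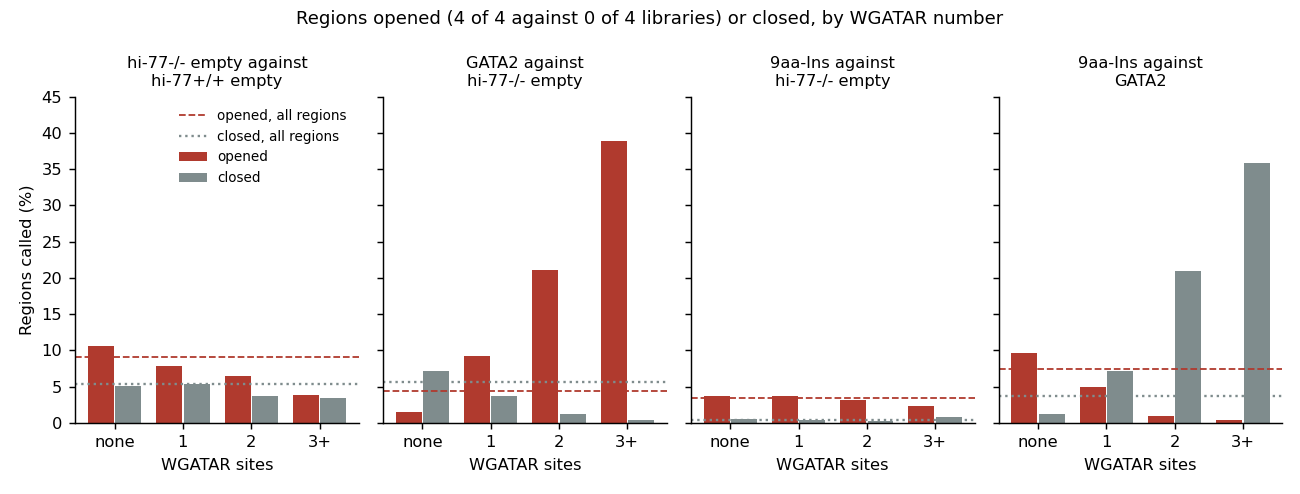
Percent of distal regions opened (red) or closed (grey) in each comparison (y axis) by the number of WGATAR sites (x axis), with dashed and dotted lines for all regions in 4 to 15 libraries. The red bars of GATA2 against hi-77-/- empty climb from 1.44% to 38.9%, and the grey bars of 9aa-Ins against GATA2 climb from 1.20% to 35.9%.

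The 4 to 15 library rule itself admits regions open in the 4 GATA2 libraries alone. Of the 936 opened members, 469 had peaks in GATA2 libraries and in no other, which is 3.81% of members with 1 site, 12.6% with 2 and 27.5% with 3 or more, against 2.01% of all regions. Among members in over 4 libraries, GATA2 opened 6.45% with 1 site, 11.1% with 2 and 17.96% with 3 or more. Among distal WGATAR regions in any number of libraries, it opened 4.01%, 8.63% and 14.8%.

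The regions opened by GATA2 with more sites also had peaks less often in groups that had no part in the call. At the 558 opened members with 1 site, 19.8% ± 2.88 had a peak in hi-77+/+ empty libraries and 23.2% ± 1.83 in 9aa-Ins libraries. At the 276 with 2 sites these were 13.8% ± 2.40 and 12.9% ± 2.60, and at the 102 with 3 or more sites 11.3% ± 2.59 and 9.07% ± 2.45. The 299 opened distal regions without WGATAR had 25.3% ± 1.14 and 31.9% ± 2.05. The ranges at 1 and 2 sites met in hi-77+/+ empty libraries, and those at 2 and at 3 or more sites overlapped in both groups. Each GATA2 library was also scored on distal regions opened in the other libraries, with no limit on the number of libraries, so that its own peaks had no part in the call. It had a peak at 79.04% to 86.8% of those with 1 site, 81.4% to 92.3% with 2, 80.3% to 92.7% with 3 or more and 66.2% to 79.1% without WGATAR, so the site classes overlapped and the class without a site reached the lowest value at 1 site.

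**Figure D3:**
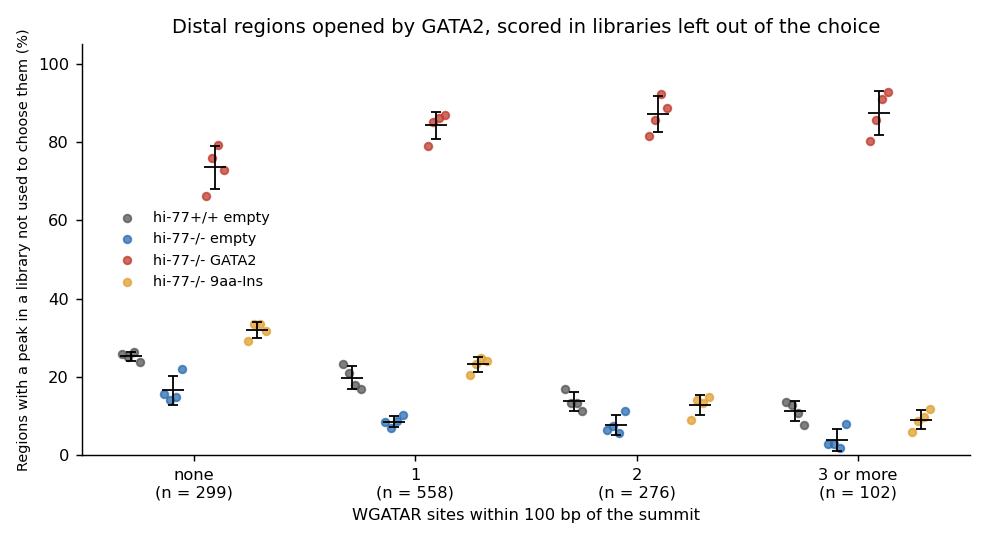
Share of distal regions opened by GATA2 (y axis, percent) that had a peak in a library not used to choose them, by number of WGATAR sites (x axis). Each point is a library; for GATA2 and hi-77-/- empty the regions were chosen again without it, and bars give the mean and SD of 4. Regions could have a peak in any number of libraries. GATA2 libraries lie between 79.04% and 92.7% at 1 or more sites, and hi-77+/+ empty and 9aa-Ins libraries lie below 25%.

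The larger comparison set the 4 GATA2 libraries against the 8 other hi-77-/- libraries. By two-sided Fisher exact tests with Benjamini-Hochberg adjustment over 36005 regions, 641 members had peaks more often with GATA2 (8.37%, against 2.83% of all regions) and 140 less often (1.83%, against 3.37%). These counts use the presence that chose the members and are a description. A region passed only with a peak in 4 of 4 GATA2 and 0 of 8 other libraries, or the reverse. Of the 641, 469 entered through the GATA2 libraries alone, and 21 also had peaks in all 4 hi-77+/+ empty libraries. With any 1 GATA2 library left out 0 members passed.

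Members near genes of mast cells, erythroid cells and cytokine receptors were among those called. A member 4.70 kb upstream of Prss34, a mast cell and basophil protease gene, had 4 sites and ranked at percentiles 33.7, 70.2, 60.2 and 55.3 of the peaks in the GATA2 libraries, by -log10 p. None of the other 12 libraries had a peak there. A pair of members lay in introns of Zfpm1, which encodes the GATA cofactor FOG-1, each with 4 sites. The member 27.4 kb downstream of its TSS had peaks in the GATA2 libraries alone, at percentiles 46.4 to 62.1. The member 14.6 kb downstream had peaks in the GATA2 libraries at 43.8 to 56.5 and in the hi-77+/+ empty libraries at 0.622 to 39.5, and in none of the 8 other hi-77-/- libraries. Apart from the second Zfpm1 member, these entered through their GATA2 peaks alone, so their presence is a description. A member 3.38 kb downstream of the TSS of Pf4, a platelet chemokine gene, had 2 sites and peaks in the GATA2 libraries alone, but of uneven rank, at percentiles 10.5, 26.3, 50.9 and 1.29. The Pf4 member also entered only through these peaks.

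GATA2 also opened members near progenitor factor genes. The Meis1 intron member, 61.4 kb from the TSS of this homeobox gene, held AGATAAGATAA, in which the 2 sites share bases, and had peaks at percentiles 43.0, 50.7, 36.8 and 59.2 in GATA2 libraries and in no other. The member 35.8 kb upstream of Myb, a progenitor transcription factor gene, ranked at 70.8, 64.4, 70.7 and 64.4 with GATA2. It also had a peak in 2 hi-77+/+ empty libraries and 1 9aa-Ins library. Members near Il5ra, Csf2rb and Csf2rb2, which encode receptor chains of the interleukin-5 family of cytokines, each had 1 site and peaks in the GATA2 libraries alone. These members and the Meis1 member entered only through those peaks, so their presence is a description. The Csf2rb and Csf2rb2 windows are near copies on opposite strands (118 of 119 bases equal). The study kept uniquely mapped reads, but how well reads were told apart between such copies is unknown. The pair therefore cannot be counted as separate.

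**Figure D4:**
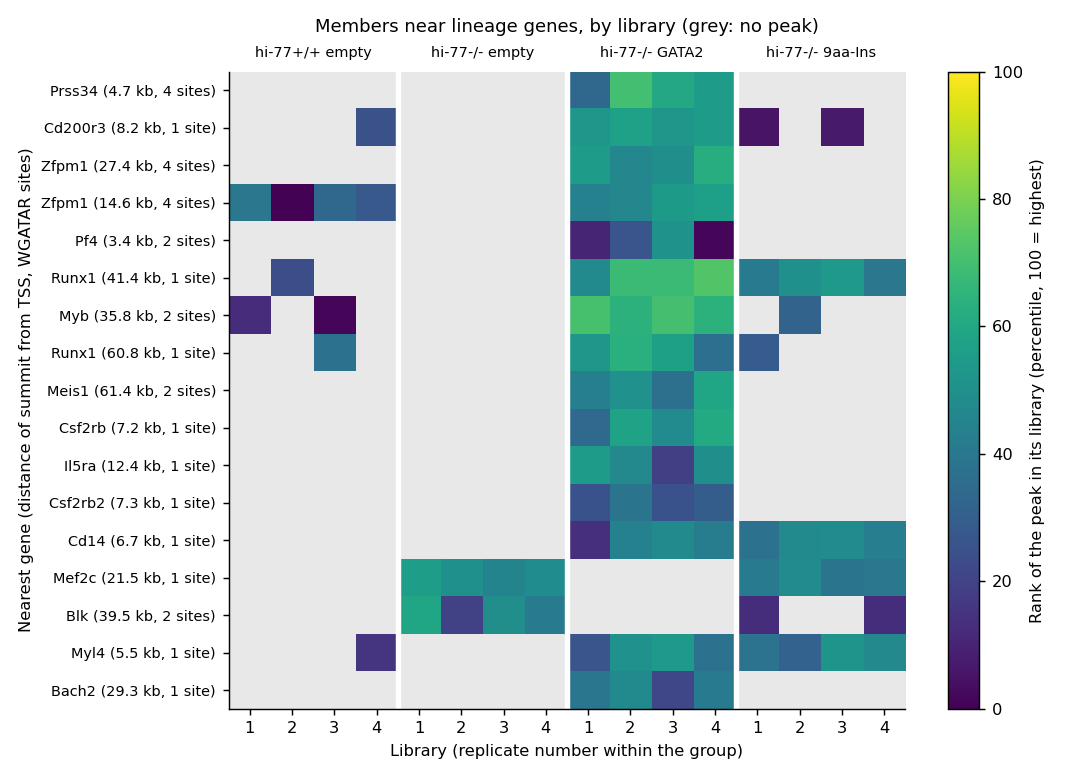
Rank of the peak (colour, percentile of -log10 p within the library, grey for no peak) in each of the 16 libraries (x axis) for members near genes of the lineage lists that GATA2 opened or closed (y axis). Members at Prss34, Pf4, Meis1, Il5ra, Csf2rb, Csf2rb2, Bach2 and the farther Zfpm1 site have peaks in the GATA2 libraries alone, through which they entered. Mef2c and Blk have no peak in the GATA2 libraries.

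Over whole lists, few members lay near the genes, and the lists were chosen with earlier results known. Of 6540 members with a nearest TSS within 100 kb, GATA2 opened 775 (11.9%) and closed 195 (2.98%). Among members near mast cell and basophil genes it opened 3 of 8, near erythroid and megakaryocyte genes 3 of 10, near cytokine receptor genes 4 of 15 and near progenitor transcription factor genes 6 of 39, and it closed none of these. Near monocyte and innate sensing genes it opened 1 of 8, the Cd14 member, which 9aa-Ins also opened. Near neutrophil granule genes none of 4 was called in any comparison. Near B lineage genes it opened 2 of 10, at Myl4 and Bach2, and closed 2, at Mef2c and Blk. The member in a Mef2c intron, with 1 TGATAA, had peaks at percentiles 45.3 to 56.0 in hi-77-/- empty and 38.6 to 48.1 in 9aa-Ins libraries, and none in GATA2 or hi-77+/+ empty libraries. A member can be on more than 1 list. Several of the opened members entered through their GATA2 peaks alone, so the counts opened are a description. Among them are those at Prss34, Pf4, Meis1, Il5ra, Csf2rb, Csf2rb2, Bach2 and the farther Zfpm1 site. The count near cytokine receptor genes includes both Csf2rb and Csf2rb2, which cannot be counted as separate.

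The highest-ranked members opened by GATA2 were not those with the most sites. The Capzb member, 12.96 kb upstream of a gene for an actin capping protein subunit, held 1 AGATAG 67.5 bp from the summit and ranked at 86.4, 77.5, 86.9 and 82.8. A total of 3 hi-77+/+ empty libraries had a peak there, at 7.77 to 41.02. The Ywhaz member, 79.3 kb upstream of a 14-3-3 protein gene, had 2 sites and ranked at 81.9 to 87.2 with GATA2 and 24.5 to 30.9 in all 4 hi-77+/+ empty libraries. Neither had a peak in hi-77-/- empty or 9aa-Ins libraries. The Tmem268 and 4932438H23Rik members, with 2 sites each, were opened by both GATA2 and 9aa-Ins. At Tmem268 the percentiles were 77.3 to 88.3 with GATA2 and 46.8 to 68.7 with 9aa-Ins, and at 4932438H23Rik 73.6 to 83.6 and 5.11 to 45.3, so GATA2 ranks lay above 9aa-Ins ranks at both.

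Position within the window went with opening by GATA2 at members with a single site. With the centre of the site under 10 bp from the summit, 98 of 582 members were opened (16.8%). The share was 13.1% at 10 to 25 bp, 10.1% at 25 to 50 bp, 6.67% at 50 to 75 bp and 5.54% at 75 to 100 bp, while the share closed stayed between 3.09% and 4.81%. In GATA2 libraries the share with a peak went from 65.5% ± 4.15 under 10 bp to 53.0% ± 3.60 at 75 to 100 bp. In the same bins it went from 46.3% ± 2.52 to 53.9% ± 1.23 in hi-77-/- empty, from 55.1% ± 1.51 to 59.7% ± 2.91 in 9aa-Ins and from 39.9% ± 5.36 to 51.9% ± 2.89 in hi-77+/+ empty libraries. GATA2 and hi-77-/- empty libraries did not overlap under 50 bp and overlapped beyond. Of the 558 members with 1 site opened by GATA2, 232 entered through GATA2 peaks alone, and shares by position without them were not computed. The median summit comes from libraries with a peak, so for opened members it is set by GATA2 libraries; how far this shapes the distances was not tested. With 2 or more sites, the share opened by the nearest site was 28.0% under 10 bp, 28.5% at 10 to 25 bp, 23.1% at 25 to 50 bp, 16.7% at 50 to 75 bp and 3 of 59 (5.08%) at 75 to 100 bp.

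**Figure D5:**
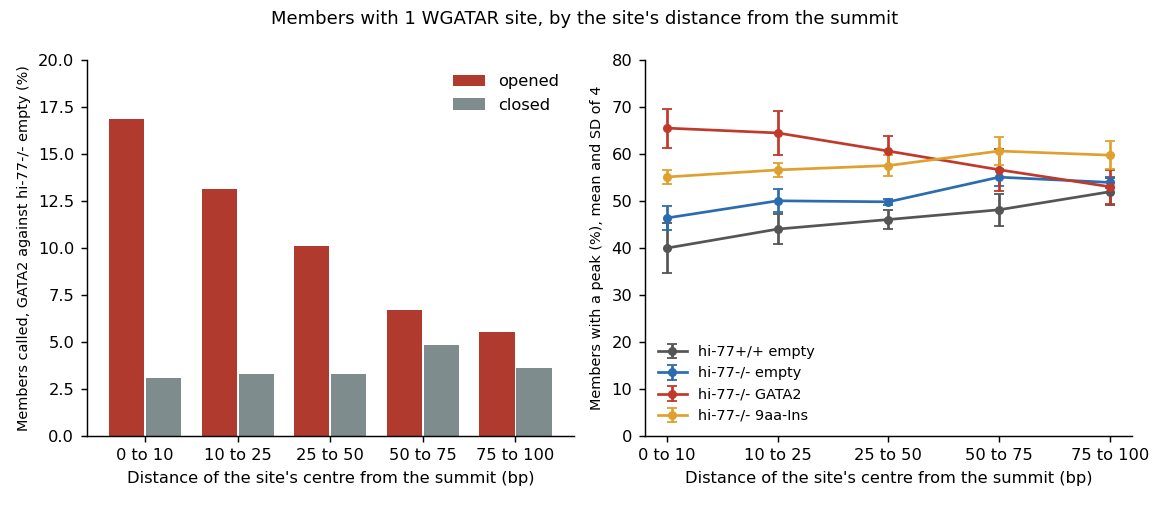
Members with 1 WGATAR site by the distance of its centre from the median summit (x axes, bp). Left, percent opened (red) or closed (grey) by GATA2 against hi-77-/- empty; right, percent with a peak, mean and SD of 4 libraries per group. The share opened goes from 16.8% to 5.54% with distance, and the GATA2 line meets that of hi-77-/- empty in the far bins.

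The letters of a single site also went with opening by GATA2. The 558 opened members with 1 site include 232 that entered through GATA2 peaks alone. How far this shapes the shares below was not tested. AGATAA sites were opened in 286 of 2017 members (14.2%), TGATAA in 8.62%, AGATAG in 6.12% and TGATAG in 5.08%, and the shares closed were 2.58%, 3.04%, 4.53% and 5.62%. AGATAA members had peaks in 66.2% ± 3.89 in GATA2 against 47.8% ± 1.44 in hi-77-/- empty libraries. For TGATAG members these were 49.1% ± 2.92 and 54.7% ± 1.97, the reverse order. The base after AGATAA also went with the count, with 153 of 738 AGATAAG members opened (20.7%), against 12.7% of AGATAAC, 9.74% of AGATAAT and 9.30% of AGATAAA. The base before AGATAA gave a narrower range, from 11.1% for T to 15.96% for G. Among sites of members opened by GATA2, AGATAA made up 47.9%, and among those closed 22.1%.

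In members with 2 sites, spacing and orientation went less clearly with opening. Of the 276 opened by GATA2, 165 entered through GATA2 peaks alone, and shares without them were not computed. Sites 0 to 5 bp apart, edge to edge, were opened in 24 of 82 members (29.3%), wider spacings in 18.5% to 23.8% and overlapping sites in 5 of 28 (17.9%). Pairs that faced away from each other on opposite strands were opened in 77 of 284 members (27.1%), pairs that faced each other in 48 of 225 (21.3%) and pairs on the same strand in 151 of 798 (18.9%). The members with the most sites stood apart from this. The Olfr6 member, intergenic and with 8 sites in a row of GATA units, had peaks in 3 hi-77+/+ empty, 1 hi-77-/- empty and 1 9aa-Ins library and in no GATA2 library. The Vmn2r-ps159 and Dlgap2 members, with 7 sites each at median steps of 24 and 31 bp, had peaks in 14 and 15 libraries. Repeats of this kind may not map uniquely, and although the study kept uniquely mapped reads, their values are uncertain. Of 5 members with at least 3 GATA units in a row, none was opened by GATA2.

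Other motifs in the 201 bp window, searched on both strands, differed between members called in different comparisons. AP-1 (TGANTCA) was in 22.9% of members opened by GATA2, 24.7% of those opened by 9aa-Ins and 13.7% of all members, and in 12.9% of distal regions in 4 to 15 libraries. GATA2 opened 214 of 1045 members with it (20.5%) and 10.9% of those without. C/EBP (TTGCNNAA) was in 33.2% of members opened by 9aa-Ins, 16.7% of those opened by GATA2, 13.95% of all members and 13.4% of distal regions. 9aa-Ins opened 90 of 1068 members with it (8.43%) and 2.75% of those without. ETS (GGAAGT) was in 44.3% of members opened in hi-77-/- empty against hi-77+/+ empty libraries and 19.2% of those closed, against 32.8% of members and 31.5% of distal regions. RUNX (TGTGGT) was in 36.5% and 19.9% of these, against 29.4% of members and 28.6% of distal regions. E-box (CANNTG) anywhere in the window was in 67.9% of members, so members without a composite often held an E-box elsewhere. CAGCTG was in 18.6% of members opened by GATA2, 13.98% of members and 15.8% of distal regions. Matches could overlap each other or a GATA site, and a match gives only that the letters are present. Of the 936 members opened by GATA2, 469 entered through GATA2 peaks alone. How far this shapes the motif shares was not tested.

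With 9aa-Ins the share of members opened showed no climb with the number of WGATAR sites like that with GATA2. Against hi-77-/- empty it opened 271 members (3.54%) and closed 29 (0.38%), against 3.39% and 0.43% of all regions, so members were called about as often as other regions. It opened 3.68% of members with 1 site, 3.14% with 2 and 2.29% with 3 or more, and 3.72% of distal regions with no WGATAR. In over 4 libraries these shares were 3.31%, 3.60% and 3.59% of members, and 2.44% with no WGATAR. Among distal regions in any number of libraries they were 1.61%, 1.28% and 0.87%, and 1.67% with no WGATAR. The order of the classes was therefore not stable. Against the 8 other hi-77-/- libraries, 0 members and 0% of all regions (0% higher and 0% lower) passed the Fisher exact test, with a smallest adjusted p of 0.132. At an unadjusted p under 0.05 the same test gave 140 members higher and 54 lower, and 1124 and 128 of all regions. Compared directly with GATA2, 9aa-Ins opened 310 members (4.05%) and closed 804 (10.5%), against 7.46% and 3.71% of all regions. The share closed went from 7.18% of members with 1 site to 20.9% with 2 and 35.9% with 3 or more, and was 1.20% with no WGATAR. It was 4.06%, 10.8% and 13.2% of members in over 4 libraries, and 3.14%, 8.54% and 13.6% of distal WGATAR regions in any number of libraries. The 9aa-Ins libraries had the widest peaks. Where a peak had to cover at least 50% of the region, 721 members were opened and 484 closed against GATA2, and 514 and 15 against hi-77-/- empty. The 29 closed members became 48 to 59 without any 1 hi-77-/- empty library and 54 or 45 without 9aa-Ins replicate 1 or 4.

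The members opened by 9aa-Ins at the highest ranks differed in their peaks with GATA2. The Sipa1l1 intron member, with AGATAA 2.5 bp from its summit, ranked at 62.3 to 70.9 in the 4 9aa-Ins libraries and had a peak in 2 GATA2 libraries, at 22.2 and 43.2. The BC117090 member had a peak in 1 GATA2 library and the Sppl2c member in none (but in 2 hi-77+/+ empty libraries), with 9aa-Ins ranks of 58.7 to 74.2 and 55.2 to 71.0. The Runx1 intron member 41.4 kb from its TSS had 1 AGATAG and was opened by both, at 47.7 to 72.8 with GATA2 and 39.5 to 53.6 with 9aa-Ins. Another Runx1 member, 60.8 kb from the TSS and with 1 AGATAA, was opened by GATA2 at 36.6 to 63.6 and had a peak in 1 9aa-Ins and 1 hi-77+/+ empty library. Of the members closed by 9aa-Ins, Kcns2 ranked at 10.9 to 61.7 in hi-77-/- empty libraries and had no peak in any other group. Lat and Rab20 were also closed, but had peaks in 2 and 3 GATA2 libraries.

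Between the empty groups, a smaller share of members than of distal regions without WGATAR was opened. Each genotype is a cultured line, so the deletion cannot be told apart from other differences between the lines. Below, the deletion names this comparison. The hi-77-/- empty group against hi-77+/+ empty opened 573 members (7.49%) and closed 386 (5.04%), against 9.03% and 5.31% of all regions. Opened were 7.85% of members with 1 site, 6.50% with 2 and 3.82% with 3 or more, and 10.6% of distal regions with no WGATAR, and closed were 5.41%, 3.67%, 3.44% and 5.08%. All 12 hi-77-/- libraries against the 4 hi-77+/+ libraries gave 314 members higher (4.10%, against 3.41% of all regions) and 290 lower (3.79%, against 4.35%) by Fisher exact tests with the same adjustment, on the presence that chose the members. Both the 386 closed and the 290 lower members include 158 with peaks in hi-77+/+ empty libraries alone (2.06%, against 2.63% of all regions). These 158 entered through that group only, so their calls are a description. Chromosome 8 held 19.7% of members closed by the deletion and 2.09% of those opened, against 5.96% of members, and chromosome 19 held 2.33% and 2.27%, against 3.15%. Without chromosomes 8 and 19 the share of members with a peak was 6.84 points higher in hi-77-/- empty than in hi-77+/+ empty libraries, against 4.36 with them. With all deposited peaks that difference was -12.4 points, so its sign was not stable. Without any 1 hi-77+/+ library the 290 lower members became 158, and without replicate 4 the 314 higher members became 206.

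The Postn member, 37.0 kb downstream of the TSS of a matricellular protein gene, ranked at 78.7 to 87.0 in hi-77-/- empty, 63.8 to 73.1 in GATA2 and 74.6 to 88.3 in 9aa-Ins libraries and had no peak in hi-77+/+ empty libraries. The Lvrn member had the same pattern. The Rgs6 intron member, near a gene for a regulator of G protein signalling, ranked at 78.8 to 89.4 in hi-77-/- empty and 65.4 to 75.1 in 9aa-Ins libraries and had no peak in GATA2 or hi-77+/+ empty libraries. Of members closed by the deletion, Tub ranked at 54.5 to 84.9 in hi-77+/+ empty libraries and had peaks in 2 GATA2 and 2 9aa-Ins libraries. Nfat5, on chromosome 8, ranked at 71.5 to 81.5 in hi-77+/+ empty libraries and had 1 other peak, in a GATA2 library. Over all members, 21 had peaks in all hi-77+/+ empty and GATA2 libraries and in no other (0.274%, against 0.136% of all regions). A further 191 had peaks in all 12 hi-77-/- libraries and in no other (2.495%, against 2.12%). Another 84 had peaks in all hi-77-/- empty and 9aa-Ins libraries alone (1.10%, against 1.93%). These were 1.33% of members with 1 site, 0.15% with 2 and 0.38% with 3 or more. The same pattern was in 2.56% of distal regions with no WGATAR.

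The 667 distal regions with an E-box and GATA composite were the nearest kind. GATA2 opened 16.8% of them and closed 2.55%, and 9aa-Ins opened 3.00%, beside 12.2%, 3.20% and 3.54% of members. Members with 2 or more sites, which number 1569, were opened by GATA2 in 24.1%. These shares include regions that entered through GATA2 peaks alone. In over 4 libraries GATA2 opened 12.1% of members with 2 or more sites and 7.51% of all members. That share was not computed for the composite regions. The difference between these kinds was not tested.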

How the data were processed

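ATAC-Seq peaks of 16 libraries were used. Processing is given as in the study's methods and the submitters' processing notes. The authors trimmed reads (Trim Galore 0.4.1), aligned them to mm10 (Bowtie2 2.2.5), removed duplicates (Picard 2.26.0) and kept uniquely mapped reads. They then shifted reads for Tn5 and called peaks per library with MACS2 without a local background. The deposited peaks give a fold enrichment (a ratio over the library's background), a -log10 p and a summit offset. Presence of a peak per region and library was computed from them in Python 3.11.15 (pandas 2.3.3, scipy 1.17.1), with TSS from GENCODE M21 and sequence from the RefSeq copy of GRCm38 (mm10). The study's count test could not be run on peak lists, so presence was tested per region by two-sided Fisher exact tests with Benjamini-Hochberg adjustment over 36005 regions, called at an adjusted p below 0.05. Named members were, with a TSS within 100 kb, the 4 of highest median rank in each opened or closed list of the comparisons with hi-77+/+ empty or hi-77-/- empty as reference and up to 4 called with GATA2 per gene list, and then the 3 with the most sites. Members, lists and tests were chosen with earlier results of these data known. Scripts were tested on simulated data. Alternatives changed peak number, width, coverage, window, summit, chromosomes, pairing and libraries. A few named members are not reported here.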

Additional observations from a re-analysis of the deposited data

Results flagged for a closer look

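The difference in share with a peak between members with 2 or more WGATAR sites and members with 1 had a mean of 17.0 points in GATA2 libraries and of -9.17 in hi-77+/+ empty, -11.1 in hi-77-/- empty and -12.0 in 9aa-Ins libraries. Every GATA2 library was positive and every other library negative, which is what singled it out, and the difference between groups was not tested. Members that entered through GATA2 peaks alone are included. In 36 groups of 4 libraries examined for a library far from the others, 2 had one, and chance gives about 1 in 20. Both were hi-77-/- empty replicate 4, with peaks at 44.1% of members with 2 sites and at 8.11% of the members with 3 or more sites opened by GATA2 when it had no part in the choice.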

How the results depend on the processing

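The difference by site number between GATA2 and hi-77-/- empty libraries stayed positive in every setting tried, from 17.7 to 31.0 points, and that of 9aa-Ins against GATA2 stayed negative. The number of reads per library is not given, which limits every count of peaks. Of 302 values recomputed under settings other than leaving out a library, 166 moved little, 127 moved and 9 changed sign. The cause was not tested.

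With 25000 peaks per library GATA2 opened 458 members and closed 138, 9aa-Ins opened 123, and 9aa-Ins against GATA2 opened 138 and closed 416. The share of members differed by 7.51 points with the deletion, by 4.02 with 9aa-Ins and by -11.1 between 9aa-Ins and GATA2, and by site number -4.02, 0.71 (a change of sign, for 9aa-Ins) and 31.0 for GATA2. Fisher tests for GATA2 called 331 higher and 63 lower. With all deposited peaks the deletion closed 906, 9aa-Ins opened 734 and closed 4, and 9aa-Ins against GATA2 opened 847 and closed 449. Shares differed by -12.4 (deletion, changed sign), 4.42 (GATA2), 24.99 (9aa-Ins) and 20.6 (9aa-Ins against GATA2, changed sign), and by site number by -7.66, 22.97, 0.24 (changed sign) and -22.7. Fisher tests called 95 and 171 for the deletion and 404 and 229 for GATA2. With peaks under 1 kb the GATA2 difference by site number was 26.6 and the share of 9aa-Ins against GATA2 -3.11.

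With 50% coverage 9aa-Ins opened 514 and closed 15, and against GATA2 opened 721 and closed 484. Shares differed by 0.72, 2.15, 18.3 and 16.2 (changed sign), and by site number by -3.27 for the deletion. Fisher tests called 143 higher for the deletion, and 420 and 238 for GATA2. With WGATAR within 50 bp the deletion opened 280 and closed 194, GATA2 closed 103, 9aa-Ins opened 151 and closed 13, and 9aa-Ins against GATA2 opened 136. Shares differed by 21.7 for GATA2 and -14.5 for 9aa-Ins against GATA2, and by site number by 0.85 (9aa-Ins, changed sign) and -27.2. Fisher tests called 172 and 144 for the deletion and 63 lower for GATA2. Within 150 bp the deletion opened 891, GATA2 closed 434, 9aa-Ins closed 48 and 9aa-Ins against GATA2 opened 545. Shares differed by 6.02 and 0.035 (9aa-Ins against GATA2, changed sign), and by site number by -4.54, 24.1 and -24.9. Fisher tests called 246 lower for GATA2. With the best summit the deletion's difference by site number was -3.01, and without chromosomes 8 and 19 its share difference was 6.84.

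A pair of settings was added after seeing the data. Without the limit on libraries shares differed by -1.31 (deletion, changed sign) and 2.94 (9aa-Ins), and by site number by -1.03, 17.7 and -18.3. With members in over 4 libraries the deletion closed 228, GATA2 opened 467 and 9aa-Ins against GATA2 closed 335. Shares then differed by 8.65, 7.04 and -0.15, and by site number by -3.62, 21.3, 0.54 (9aa-Ins, changed sign) and -20.7.

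Leaving out 1 library gave 573 to 696 members opened and 386 to 467 closed by the deletion, 936 to 1044 and 245 to 297 by GATA2, 271 to 332 and 29 to 59 by 9aa-Ins, and 310 to 390 and 804 to 881 for 9aa-Ins against GATA2. Fisher tests gave 206 to 366 and 158 to 316 for the deletion, and 0 to 675 and 0 to 157 for GATA2. The 0 came without any 1 GATA2 library, when no member passed with 3 against 8 after the adjustment.

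The replicate numbers did not pair the libraries: correlations of deviations were -0.0296 to 0.0273 for 24 pairs of the same number and -0.0277 to 0.0310 for 72 of different numbers. With the replicate block all counts of the exact tests were 0. The smallest p it allows for 4 against 4 is 0.125, and the larger comparisons had smallest adjusted p-values of 0.0823, 0.199 and 0.805.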
